A study of Mus musculus with 4 samples.

Results

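A set of 10 genes of cell adhesion and epithelial-mesenchymal transition (EMT) was read in mouse embryonic stem (ES) cells of wild type and of Prep1-/- genotype, Prep1 being the homeodomain factor encoded by Pknox1. They were the cadherin gene Cdh1 and Epcam as epithelial genes, Cdh2, Vim and Fn1 as mesenchymal genes, and the transcription factor genes Snai1, Snai2, Zeb1, Zeb2 and Twist1. The genes were picked by name, and all 10 were found among the 22718 genes of both RNA-seq tables. Of these, 9 carried their present symbol and Epcam stood under its older symbol Tacstd1, to which it was matched by gene identifier.

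The RNA-seq compared 1 library of polyA RNA from wild type C57BL/6 ES cells with 1 library from Prep1-/- cells of the same strain, for which the study used its KO2 line. Both lines were grown undifferentiated on gelatin with leukemia inhibitory factor. A list of Prep1 peaks from 1 ChIP-seq sample of wild type ES cells was also used, made with the antibody PREP-1 N-15 and called against input DNA. Its strain label is C57BL/6, while its protocol names R1 cells, so the chromatin and the RNA may come from different lines. Each genotype was thus 1 cell line and 1 library, so differences between lines and between genotypes cannot be told apart, no difference below has a replicate check, and no p-value is given. The deposited reads summed to 29596294 in the wild type library against 25717811 in the library labelled Prep1-/-. Pknox1 itself gave 505 reads in the wild type library against 332 in the library labelled Prep1-/-, or 7.85 and 5.78 RPKM (reads scaled to gene length and library size), a KO/WT ratio of 0.736 with an exact 95% counting interval of 0.638 to 0.846. The RNA of the targeted gene was therefore still counted, and these counts do not show which part of it was left. At the protein level, the study reported loss of Prep1 by immunoblot in its null lines, KO2 included. ES cell identity was checked on 8 markers, which all exceeded 1 RPKM in both libraries, with Pou5f1 at 323 and 360 RPKM.

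Epithelial cells adhere through E-cadherin, the product of Cdh1, whose cytoplasmic tail is tied to actin by catenins. In EMT, repressors of the Snail, Zeb and Twist families shut down Cdh1 and its companions, and cells take on N-cadherin (Cdh2), the intermediate filament protein vimentin (Vim) and a fibronectin matrix (Fn1). The switch is best known from gastrulation, where cells leave the epiblast through the primitive streak. Undifferentiated ES cells are epithelial in this sense, since E-cadherin holds their colonies together.

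On RPKM, which divides by gene length and so lets genes be compared, the adhesion and matrix genes stood far above the transcription factor genes in both libraries. In the wild type library the order was Fn1, Cdh1, Epcam, Vim, Snai1, Cdh2, Twist1, Zeb1, Zeb2 and Snai2, from 290 down to 0.337 RPKM. The counting intervals of Fn1 and Cdh1 overlapped there, as did those of Zeb2 and Snai2, so neither pair could be ordered. In the library labelled Prep1-/- the order was Fn1, Cdh1, Epcam, Vim, Cdh2, Snai1, Zeb1, Twist1, Snai2 and Zeb2, from 333 down to 0.512 RPKM. The intervals of Cdh2 and Snai1 overlapped in that library, as did those of Snai2 and Zeb2. Zeb1 and Twist1 swapped places, with intervals that lay apart in both libraries.

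**Figure D1:**
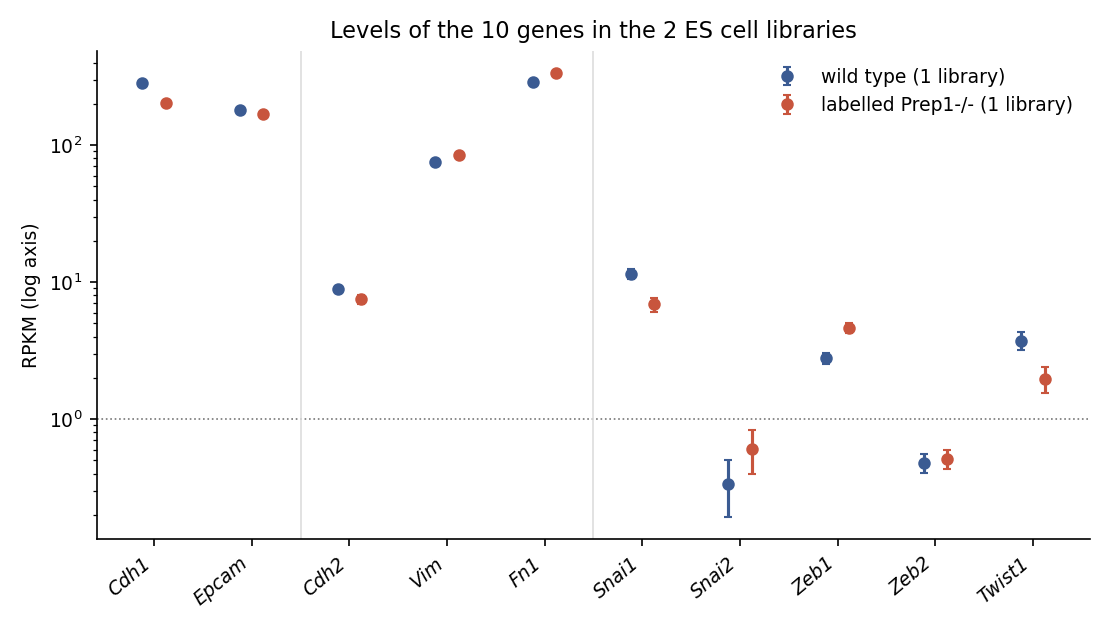
RPKM on a log axis of the 10 genes in the wild type library (blue) and the library labelled Prep1-/- (red), 1 library each; bars are exact 95% Poisson intervals of the read count, and the dotted line marks 1 RPKM. Fn1, Cdh1, Epcam and Vim lie between 75.2 and 333 RPKM in both libraries, and Snai2 and Zeb2 lie below 1 RPKM in both.

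A gene was counted as lower in the library labelled Prep1-/- when its wild type RPKM exceeded 1 and its KO/WT ratio was below 0.7, and as higher when its RPKM in that library exceeded 1 and the ratio was above 1.5. The ratio limits and the wild type filter are those of the study, and the RPKM filter for higher genes, on the library labelled Prep1-/-, was set here. Over all genes, 13.8% of the 13795 with wild type RPKM above 1 passed the lower threshold, and 7.20% of the 13677 that exceeded 1 RPKM in the library labelled Prep1-/- passed the higher one. Of the 10 genes, 8 exceeded 1 RPKM in both libraries. Of these 8, Snai1 and Twist1 passed the lower threshold and Zeb1 the higher one, counts too small to set apart from those shares. The median log2 ratio of the 10 genes, with 0.1 added to both RPKM values, was -0.0042, beside -0.07 for all 13218 genes that exceeded 1 RPKM in each library. The counting interval of the ratio lay below 1 for 5 of the 10 genes (Cdh1, Epcam, Cdh2, Snai1 and Twist1), above 1 for 3 (Vim, Fn1 and Zeb1) and across 1 for Snai2 and Zeb2. Such intervals are narrow at this depth: over the 13218 genes they lay below 1 for 36.8% and above 1 for 20.8%, so an interval apart from 1 does not set a gene apart from the rest. The ratio itself was below 1 for 7776 of these 13218 genes.

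**Figure D2:**
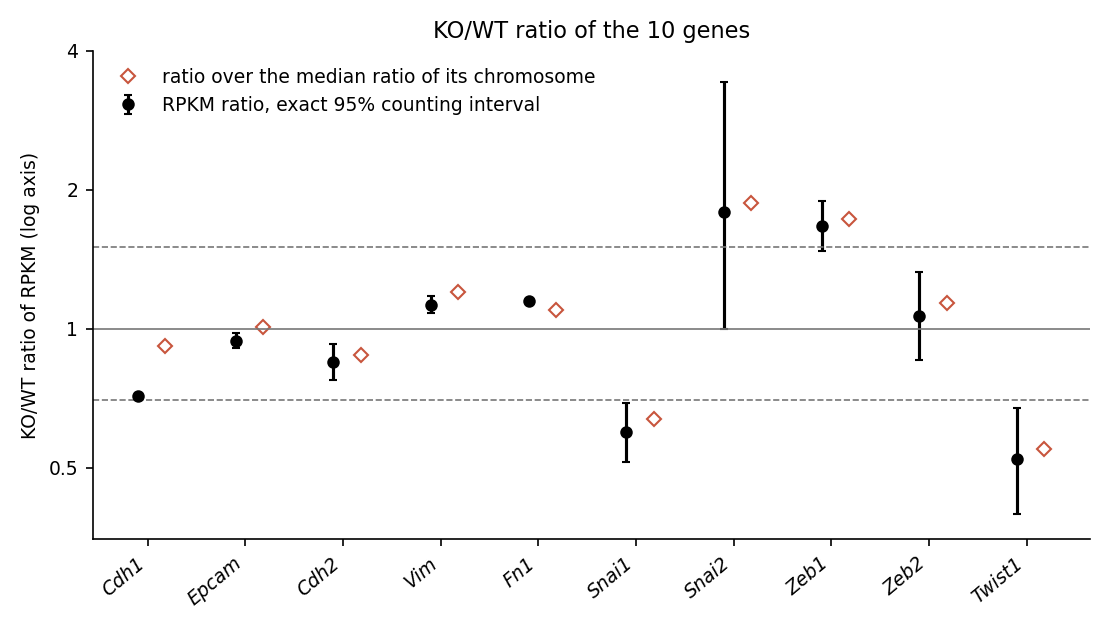
KO/WT ratio of RPKM on a log axis for the 10 genes, with exact 95% counting intervals from the reads (black), and the same ratio divided by the median ratio of the genes on its chromosome (red diamonds); dashed lines mark 0.7 and 1.5. Snai1 (0.598) and Twist1 (0.523) lie under the lower line, Zeb1 (1.67) over the higher one, and Cdh1 moves from 0.715 to 0.918 when its chromosome is taken into account.

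Cdh1 (ENSMUSG00000000303, mm9 chr8:109127251-109194146, plus strand) encodes E-cadherin. It was counted in 33467 reads in the wild type library against 21403 in the library labelled Prep1-/-, or 286 and 204 RPKM. The KO/WT ratio of 0.715, with an interval of 0.703 to 0.727, stopped just short of the lower threshold. Chromosome 8 as a whole was low in the same comparison. Its 702 genes above 1 RPKM in each library had a median ratio of 0.779, 605 of them had a ratio below 1, and 199 passed the lower threshold, whereas the medians of the other chromosomes ran from 0.923 to 1.08. Divided by the median of its chromosome, the Cdh1 ratio was 0.918. What part the chromosome has in the Cdh1 ratio was not tested. In a bulk library, fewer cells that express a gene and less RNA of it per cell cannot be told apart.

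Epcam (ENSMUSG00000045394, mm9 chr17:88035319-88050446, plus strand) encodes the epithelial cell adhesion molecule. Its reads numbered 6003 in the wild type library against 5060 in the library labelled Prep1-/-, or 179 and 169 RPKM. Its ratio of 0.943, with an interval of 0.908 to 0.979, was close to the median of all genes, 0.955, and became 1.01 when divided by the median of chromosome 17. The epithelial genes thus did not keep step: the Cdh1 level was 1.59 times the Epcam level in the wild type library against 1.21 times in the library labelled Prep1-/-. The change in that quotient was 0.759, with an interval of 0.728 to 0.791 that no library-wide scaling can move, although it holds the chromosome 8 difference.

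RefSeq promoters (build GRCm38.p6) were at hand for 5 of the 10 genes: Epcam, Vim, Snai1, Zeb2 and Twist1. The 250 bases before the start were searched for the E-box CAGGTG and its reverse complement CACCTG, the letters that Snail and Zeb zinc fingers are known to read. Of 32851 promoter entries, 17.2% held at least 1 such E-box and 2.06% held 2 or more. Epcam held 2, which begin at positions -187 and -19 from the start, and Snai1 held 1, which begins at -126. Vim, Twist1 and the Zeb2 entries held none in this window. The Epcam and Snai1 stretches, with the E-boxes in capitals, are shown because they are the ones of these promoters that hold such letters. They lie at chr17:87635729-87635978 and chr2:167537945-167538194, and both are on the plus strand.
Epcam promoter: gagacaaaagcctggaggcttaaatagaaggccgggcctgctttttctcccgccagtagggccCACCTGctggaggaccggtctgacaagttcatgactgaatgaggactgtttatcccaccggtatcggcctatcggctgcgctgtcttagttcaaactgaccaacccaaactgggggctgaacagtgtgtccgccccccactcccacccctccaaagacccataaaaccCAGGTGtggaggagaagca
Snai1 promoter: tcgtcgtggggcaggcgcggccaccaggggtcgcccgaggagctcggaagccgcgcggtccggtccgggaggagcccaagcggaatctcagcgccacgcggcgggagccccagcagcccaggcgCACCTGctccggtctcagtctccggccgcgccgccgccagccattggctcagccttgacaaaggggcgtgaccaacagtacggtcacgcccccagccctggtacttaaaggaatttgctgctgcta
A match is a description of letters, and binding of Snail or Zeb proteins was not measured.

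Cdh2 (ENSMUSG00000024304, mm9 chr18:16747386-16967755, minus strand) encodes N-cadherin, the cadherin that replaces E-cadherin in EMT. A total of 1089 reads was found in the wild type library against 825 in the library labelled Prep1-/-, or 8.84 and 7.49 RPKM. The ratio was 0.847, with an interval of 0.773 to 0.928, and it was 0.879 after division by the median of chromosome 18. Cdh1 and Cdh2 therefore both had a ratio below 1, and neither passed a threshold. The Cdh1 level was 32.3 times that of Cdh2 in the wild type library against 27.3 times in the library labelled Prep1-/-. This change also holds the chromosome 8 difference.

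Vim (ENSMUSG00000026728, mm9 chr2:13495554-13504453, plus strand) encodes vimentin. It was counted in 4217 reads in the wild type library against 4257 in the library labelled Prep1-/-, or 75.2 and 84.9 RPKM, a ratio of 1.13 with an interval of 1.08 to 1.18. Fn1 (ENSMUSG00000026193, mm9 chr1:71632094-71699774, minus strand) encodes fibronectin, the matrix protein that integrins hold on to. It was counted in 59861 reads in the wild type library against 61475 in the library labelled Prep1-/-, or 290 and 333 RPKM. Its ratio of 1.15, with an interval of 1.14 to 1.16, and that of Vim were both above 1 under every scaling tried and below the higher threshold under each. The Fn1 level was 3.86 times the Vim level in the wild type library against 3.93 times in the library labelled Prep1-/-, quotients that differed by less than counting error. Set against Cdh1, Fn1 shifted: the quotient of Cdh1 over Fn1 went from 0.984 to 0.613. This shift also holds the chromosome 8 difference. Over the medians of their chromosomes the ratios were 0.918 for Cdh1 and 1.10 for Fn1. Fibroblast markers were read beside these genes because fibroblasts carry much vimentin and fibronectin. Of 9 such markers, 7 had reads in both libraries and 3 exceeded 1 RPKM. Of those 7, 6 had a ratio above 1, 2 with an interval above 1 (Col1a1, a collagen chain, and Postn, periostin), and the summed level of the list was 25.0 RPKM in the wild type library against 30.8 in the library labelled Prep1-/-. Lum had 0 reads in the wild type library against 2 in the other, and Fap had 0 in both. The part of fibroblast-like cells in the Vim and Fn1 levels was not tested.

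Snai1 (ENSMUSG00000042821, mm9 chr2:167363695-167368314, plus strand) encodes Snail, the zinc finger repressor of Cdh1. Its count was 536 reads in the wild type library against 286 in the library labelled Prep1-/-, or 11.5 and 6.88 RPKM. The ratio of 0.598, with an interval of 0.515 to 0.690, lay wholly under the lower threshold. Twist1 (ENSMUSG00000035799, mm9 chr12:34642536-34644682, plus strand) encodes a basic helix-loop-helix factor of mesoderm and neural crest. For it 183 reads were found in the wild type library against 85 in the library labelled Prep1-/-, or 3.74 and 1.96 RPKM, and its ratio of 0.523, with an interval of 0.397 to 0.675, also lay wholly under the lower threshold. Whether their ratios differed could not be told from the reads: the quotient of Snai1 over Twist1 was 3.07 in the wild type library against 3.52 in the library labelled Prep1-/-, with an interval of the change of 0.848 to 1.56. Snai1 thus passed the lower threshold, while Cdh1 did not, with a ratio of 0.715, or 0.918 over its chromosome median. What part Snail has in the Cdh1 level was not tested.

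Snail is at work in the primitive streak and Twist in mesoderm, so markers of the streak and of nascent mesoderm were read beside Snai1 and Twist1. Of 6 markers, 4 passed the lower threshold and none passed the higher one, beside 13.8% and 7.20% over all genes. The summed level was 31.9 RPKM in the wild type library against 11.8 in the library labelled Prep1-/-. The leading gene was T (brachyury), with 1091 and 242 reads and a ratio of 0.249, followed by Mixl1 with a ratio of 0.300, Eomes with 0.504 and Kdr with 0.639, which became 0.785 and no longer passed with 1 added to both RPKM values. Mesp1 stood at 17 and 5 reads, and Tbx6 had a ratio of 1.01. Of 8 markers of primitive and parietal endoderm, 3 passed the lower threshold (the GATA factors Gata4, with a ratio of 0.339, and Gata6, with 0.456, and the endocytic adaptor Dab2, with 0.667). With 1 added to both RPKM values Gata6 had 0.706 and Dab2 0.752 and neither passed, and Dab2 did not pass with size factors (0.702) or over its chromosome median (0.718) either. Sox7 alone of the 8 had a ratio above 1, with 119 and 148 reads. Its ratio of 1.39 had an interval of 1.09 to 1.79 and passed no threshold. The summed level of the 8 markers was 358 and 334 RPKM, most of it from the matrix protein gene Sparc at 347 and 328 RPKM. No marker of either list was at 0 reads. Of the 8 ES cell markers, 7 had a ratio above 1, Nanog with 1.37 and Utf1, the most abundant, with 1.04, and none passed a threshold. A ratio above 1 was also found for 5442 of the 13218 genes above 1 RPKM in each library. The only marker below 1 was Zfp42, which lies on chromosome 8 and had 1.03 over the median of that chromosome. The part of spontaneously differentiating cells in the Snai1 and Twist1 levels was not tested.

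Zeb1 (ENSMUSG00000024238, mm9 chr18:5591858-5775465, plus strand) encodes a repressor with zinc finger clusters on both sides of a homeodomain. Its count was 434 reads in the wild type library against 648 in the library labelled Prep1-/-, or 2.78 and 4.64 RPKM. The ratio was 1.67, past the higher threshold, with an interval of 1.48 to 1.89 that reached just under it. With 1 added to both RPKM values the ratio was 1.49 and no longer passed. Zeb2 (ENSMUSG00000026872, mm9 chr2:44839154-44972915, minus strand), its paralog, had 171 and 163 reads, or 0.480 and 0.512 RPKM. Its ratio of 1.07 had an interval of 0.855 to 1.33, which includes 1 and lies between both thresholds. The paralogs parted from each other: the quotient of Zeb1 over Zeb2 was 5.79 in the wild type library against 9.06 in the library labelled Prep1-/-, a change of 1.56 with an interval of 1.21 to 2.02. Zeb1 also moved against Snai1, with a quotient of 0.241 in the wild type library against 0.674 in the library labelled Prep1-/-.

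Snai2 (ENSMUSG00000022676, mm9 chr16:14705945-14709488, plus strand) encodes Slug, a relative of Snail. It had 19 reads in the wild type library against 31 in the library labelled Prep1-/-, or 0.337 and 0.603 RPKM. These values are below the 1 RPKM needed for a call, and the ratio of 1.79 had an interval of 0.999 to 3.42, so these reads could not show a difference. The quotient of Snai1 over Snai2 was 34.1 in the wild type library against 11.4 in the library labelled Prep1-/-. Its change of 0.334 had an interval of 0.172 to 0.610. This change holds the lower Snai1 level (ratio 0.598), so it does not show a difference of Snai2 by itself. The 5 factors thus took 3 courses, with Snai1 and Twist1 lower, Zeb1 higher, and Snai2 and Zeb2 under 1 RPKM in both libraries.

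The junction genes around Cdh1 were read as lists. Over all genes above 1 RPKM in the library concerned, 13.8% passed the lower threshold and 7.20% the higher one. Of the 13218 genes above 1 RPKM in each library, 7776 had a ratio below 1 and 36.8% an interval below 1. The lists here and below stand beside these shares, and counts of a few genes are too small to set apart from them. Of 11 genes for catenins, nectins and other proteins that tie cadherins to actin, none passed a threshold, and their median log2 ratio was -0.12. Beta-catenin (Ctnnb1), the most abundant of them, stood at 199 and 186 RPKM. Of 18 tight junction and desmosome genes, all had a ratio below 1 with an interval below 1, 8 passed the lower threshold and none the higher one, and the median log2 ratio was -0.44. With median-of-ratios size factors 17 of the 18 were below 1 and 6 passed the lower threshold, and with each chromosome set to its own median 16 were below 1 and 7 passed. The lowest ratios were those of Pkp3 (plakophilin of desmosomes, 0.511), the claudin genes Cldn6 (0.576) and Cldn7 (0.589), and Crb3 (a polarity protein, 0.607). Cldn4 was the most abundant, at 451 and 303 RPKM with a ratio of 0.672, which became 0.707 with size factors and 0.705 over its chromosome median and then did not pass. Cldn6 was counted in 13346 reads in the wild type library against 6875 in the library labelled Prep1-/-, so that its level went from just above that of Cdh1, at 303 RPKM, to below it, at 175 RPKM. None of these 5 genes lies on chromosome 8. Dsp, which encodes desmoplakin, is split over more than one gene model in the tables, and its ratio of 0.851 is from the model that carries the symbol.

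Among 14 regulators and surface genes that hold epithelial identity, 3 passed the lower threshold and none the higher one, with a median log2 ratio of -0.39. Among them were the membrane protease gene Prss8 (5390 and 3157 reads, ratio 0.655) and the splicing regulator gene Esrp2 (0.669), which lies on chromosome 8 and had 0.858 after division by its median and 0.704 with size factors. Prss8 had 0.710 over its chromosome median and did not pass either. With chromosome medians set to 1 the count past the lower threshold was 1. Spint2, a protease inhibitor gene, was the most abundant, at 243 and 202 RPKM. The Grainyhead-like genes Grhl1, Grhl2 and Grhl3, whose products open epithelial enhancers, had ratios of 0.935, 0.988 and 1.03, each with an interval across 1, and were taken from the same list after their values were seen. The microRNAs of the mir-200 family, which silence Zeb1 and Zeb2, could not be read: 3 of 5 were listed, with 0 to 2 reads each in polyA libraries.

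A list of 12 further EMT factors had a median log2 ratio of -0.16, with 4 past the lower threshold and 1 past the higher one, or 2 and none with chromosome medians set to 1. The homeodomain gene Prrx2 had a ratio of 0.558, the Snail relative Snai3 0.576, the Twist1 paralog Twist2 0.588 and the chromatin protein gene Hmga2 0.677, while the zinc finger gene Klf8 stood at 1.57. Snai3 lies on chromosome 8, where division by the median gave 0.739, and Klf8 on the X chromosome, where it gave 1.45. Twist2 rested on 77 and 40 reads, with an interval of 0.386 to 0.862, and with 1 added to both RPKM values its ratio of 0.727 did not pass. Hmga2 did not pass with size factors (0.713), over its chromosome median (0.734) or with 1 added (0.718), and Klf8 did not with 1 added (1.45). Tcf3, which encodes the E2A proteins that pair with Twist and is listed in the tables as Tcfe2a, was the most abundant, at 72.4 and 60.4 RPKM. For the corepressors that Snail and Zeb proteins call in, none of 10 passed a threshold, the median log2 ratio was -0.07, equal to that of all genes, and Ctbp2, the most abundant, stood at 251 and 241 RPKM.

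Other mesenchymal genes were read beside Vim and Fn1. Of 21 genes, 4 passed the lower threshold and 2 the higher one, counts too small to set apart from the 13.8% and 7.20% of all genes. A ratio below 1 was found for 16 of them, and the median log2 ratio was -0.39. The interval lay below 1 for 12 of the 21 and above 1 for 3, beside 36.8% and 20.8% of the 13218 genes above 1 RPKM in each library. With size factors, and likewise with chromosome medians set to 1, 2 passed the lower threshold and 2 the higher one. The genes under the lower threshold were those of the matrix proteases Mmp9 (701 and 313 reads, ratio 0.500) and Mmp2 (0.574, on chromosome 8, 0.738 after division by its median), the receptor kinase Axl (0.677) and the intermediate filament protein nestin (Nes, 0.684). Axl and Nes did not pass with size factors, at 0.713 and 0.720, nor over their chromosome medians. Past the higher one was, among others, the adhesion molecule gene Ncam1 (349 and 555 reads, ratio 1.78), which had 1.44 with 1 added to both RPKM values and then did not pass. Tagln, an actin-binding protein gene of smooth muscle, was the most abundant, at 481 and 345 RPKM. Of 8 integrin subunit genes for fibronectin receptors, 1 passed the lower threshold, Itgb1 with 8089 and 4386 reads and a ratio of 0.606, and the median log2 ratio was -0.28. Itgb1 is also on chromosome 8 and had 0.778 after division by its median. All 9 genes for transforming growth factor beta ligands, receptors and Smad mediators, the best known inducers of EMT, had a ratio below 1. So did 7776 of the 13218 genes above 1 RPKM in each library. The interval lay below 1 for 7 of the 9. One of them passed the lower threshold, the ligand gene Tgfb1 with 1231 and 636 reads and a ratio of 0.578, and the median log2 ratio was -0.31. Smad4, the most abundant, stood at 28.8 and 23.1 RPKM, and with chromosome medians set to 1 the number below 1 was 8.

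**Figure D3:**
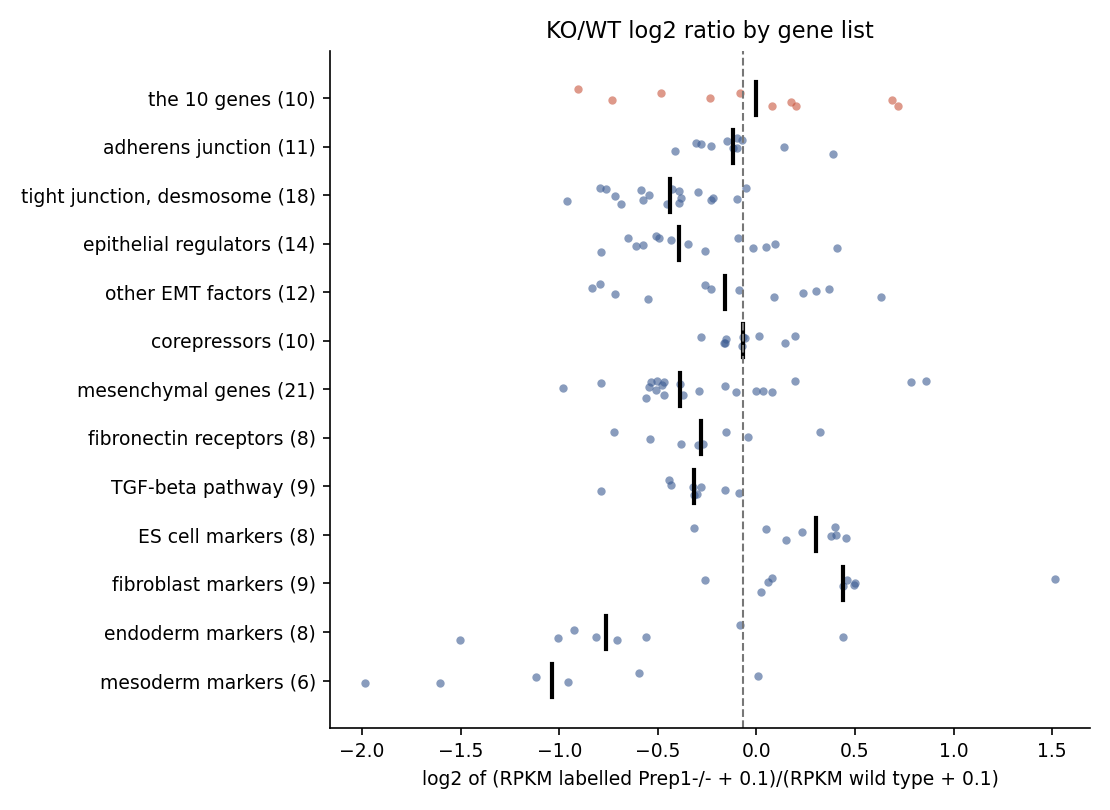
Log2 KO/WT ratio of RPKM, with 0.1 added to both values, for each gene (dots) of the 10 genes and of 12 lists of related or marker genes, with the number of genes in parentheses and the list median as a black bar; the dashed line is the median of all genes above 1 RPKM in each library, -0.07. The medians of tight junction and desmosome genes (-0.44), endoderm markers (-0.76) and mesoderm markers (-1.04) lie to its left, and those of ES cell markers (0.30) and fibroblast markers (0.44) to its right. With 1 added in place of 0.1 the medians of the low-level lists shrink, to 0.07 for fibroblast, -0.22 for endoderm and -0.57 for mesoderm markers.

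The cadherin family was read as a whole to place Cdh1 and Cdh2. Of 23 genes with a Cdh number, 12 had at least 20 reads in both libraries together. Cdh13, which encodes T-cadherin, a cadherin anchored without a cytoplasmic tail, had 374 reads in the wild type library against 111 in the library labelled Prep1-/-, a ratio of 0.334 with an interval of 0.266 to 0.411. Its ratio over the median of chromosome 8 was 0.429. Cdh24 had 606 and 373 reads and a ratio of 0.689, and it too passed the lower threshold, although its interval of 0.603 to 0.784 included it and size factors gave 0.725, which did not pass. Cdh4, which encodes R-cadherin, had 153 and 230 reads, or 1.77 and 2.98 RPKM, and passed the higher threshold with a ratio of 1.68. With 1 added to both RPKM values the ratio was 1.43 and no longer passed. Cdh3, the P-cadherin gene and the next most abundant after Cdh1, stood at 22.6 and 18.2 RPKM, a ratio of 0.808 that became 1.04 over the median of its chromosome. Genes under 1 RPKM get no call: Cdh23, of the hair cell tip link, had 23 and 61 reads, Cdh6 had 25 and 6, Cdh10 had 50 and 44, and Cdh15, Cdh11 and Cdh22 had at most 34 reads each in either library, with intervals across 1. Of these 12 genes 5 lie on chromosome 8. Cdh1 made up 286 of the 333 RPKM summed over the family in the wild type library against 204 of 242 in the library labelled Prep1-/-.

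**Figure D4:**
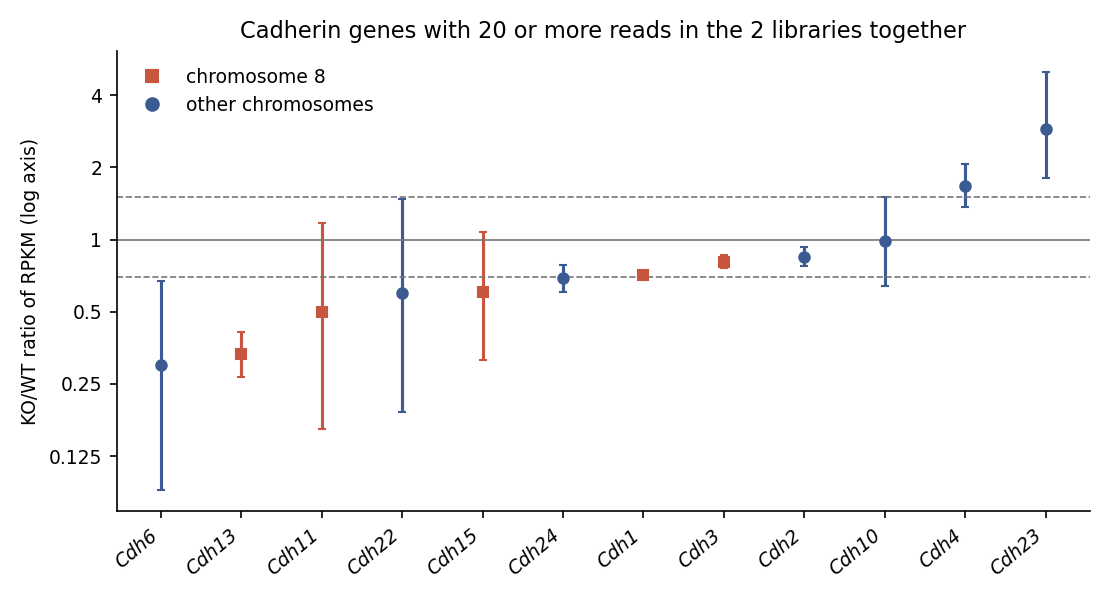
KO/WT ratio of RPKM on a log axis for the 12 cadherin genes with at least 20 reads in both libraries together, ordered by ratio, with exact 95% counting intervals; red squares are genes on chromosome 8, blue circles genes on other chromosomes, and dashed lines mark 0.7 and 1.5. Cdh13 (0.334) and Cdh4 (1.68) stand on opposite sides of Cdh1 (0.715) and Cdh2 (0.847).

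Prep1 binds DNA together with Pbx partners. Of the 10 genes, Fn1 and Snai1 had a Prep1 peak within 20000 bp of their start or inside the gene, and among all 21446 genes placed on the annotation 21.0% had one, so the share of the 10 is near the background. Among genes with RPKM above 1 in the wild type library the figure was 26.4%. The nearest peaks of the other genes were 262883 bp from the start of Cdh1 and 353507 bp from that of Epcam, and those of Cdh2, Vim, Zeb1, Zeb2, Snai2 and Twist1 were more than 1 Mb away. At Fn1 one peak (chr1:71699118-71699789, 15-fold enriched) covered the start, exon 1 and part of intron 1, and also the start of a gene annotated as Apol7d on the other strand. Another (chr1:71656331-71657077, 38-fold) lay in an intron, 43070 bp into the gene at its midpoint. A further one (chr1:71719816-71720312, 22-fold) lay upstream with its edge 20042 bp from the start, just beyond the limit. At Snai1 the peak (chr2:167345090-167345628, 19-fold) lay between genes, 18336 bp upstream at its midpoint, and the nearest coding start was that of Snai1. The median enrichment of all 3902 peaks was 21-fold, and Pknox1 itself had a peak of 219-fold over its start.

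**Figure D5:**
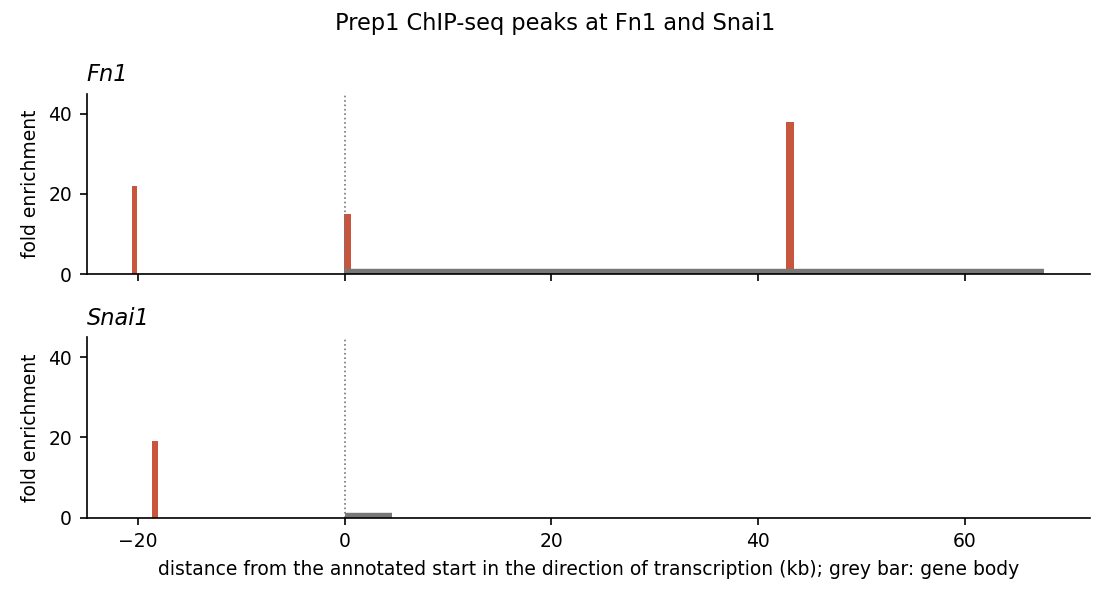
Deposited Prep1 peaks as bars at their distance in kb from the annotated start of Fn1 (top) and Snai1 (bottom), in the direction of transcription, with fold enrichment over input as height and the gene body in grey. Fn1 has peaks of 22-fold upstream, 15-fold at the start and 38-fold in an intron, and Snai1 has 1 upstream peak of 19-fold.

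The peaks were searched on both strands for the Prep1 decamer, TGANTGACAG, for the same with 2 more free positions, TGANNGNCAG, and for its last 6 letters alone, TGACAG. These motifs contain each other: each full decamer is also counted in the others. Of all 3902 peaks, 24.3% held the decamer, 47.2% the freer form and 58.4% the hexamer. These shares count exact letters. The study searched its motif with the programs MEME and FIMO and reported it in a larger share of the peaks. The Fn1 start peak and intronic peak held the decamer once each, the upstream Fn1 peak only the freer form, and the Snai1 peak only the hexamer. The stretches are shown because they are the parts of these peaks that hold the match, with the matched letters in capitals, on the strand on which the match reads 5′ to 3′. The build is mm9. The intronic Fn1 stretch is chr1:71656547-71656696 (plus strand), the start stretch chr1:71699404-71699433 (plus strand, at the end of exon 1), the upstream Fn1 stretch chr1:71720000-71720149 (minus strand) and the Snai1 stretch chr2:167345220-167345369 (plus strand).
Fn1 intronic peak: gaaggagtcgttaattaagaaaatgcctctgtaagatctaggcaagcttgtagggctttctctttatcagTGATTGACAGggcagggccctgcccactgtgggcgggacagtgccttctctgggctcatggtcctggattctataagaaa
Fn1 start peak: acgcttgctcTGACTGACAGccaccgggga
Fn1 upstream peak: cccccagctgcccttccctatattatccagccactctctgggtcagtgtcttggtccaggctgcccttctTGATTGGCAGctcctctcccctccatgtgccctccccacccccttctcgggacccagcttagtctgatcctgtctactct
Snai1 upstream peak: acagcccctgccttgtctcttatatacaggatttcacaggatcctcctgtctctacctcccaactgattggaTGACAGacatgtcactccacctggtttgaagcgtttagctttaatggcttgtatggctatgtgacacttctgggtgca
The KO/WT ratios of the genes with these peaks lay on opposite sides of 1, at 1.15 for Fn1, which passed no threshold, and at 0.598 for Snai1, which passed the lower one. The peaks come from wild type cells, so whether binding differed in the line labelled Prep1-/- was not measured.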

How the data were processed

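The authors mapped ChIP-seq reads to mm9 with BWA and called peaks with MACS. The deposited peak list gives a rounded fold enrichment per peak. For RNA-seq, the authors assigned reads to Ensembl genes with RSEM and analysed them with DESeq. They deposited, for each library and gene, an RPKM and a whole-number count of reads. Versions are not given in the sources used here. The deposited RPKM is proportional to the count plus 1, with a factor of 1.12 between libraries for every gene with finite values. RPKM is Inf for 85 genes, which were left out. RSEM can share reads between paralogs.

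The 10 genes and all gene lists were chosen with earlier results of these data known. KO/WT is the RPKM ratio, and its exact Clopper-Pearson 95% interval comes from the share of reads. Intervals of a change in the quotient of 2 genes are exact conditional odds-ratio intervals of their reads. Intervals cover counting error only, since reads are not independent molecules. Named were the 10 genes, Pknox1, cadherin genes with at least 20 reads in both libraries together, and from each list the genes past a threshold with at least 20 reads (at most the 4 lowest and 4 highest) and the most abundant. Of these, 2 genes are not reported here. Positions follow NCBIM37 with GENCODE M1. Alternatives were other scalings, pseudocounts, filters, thresholds and peak distances. Calls and intervals were tested on simulated data. The tools were Python 3.11.15 with scipy 1.17.1, pandas 2.3.3, matplotlib 3.10.9 and numpy 2.4.6.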

Additional observations from a re-analysis of the deposited data

How the results depend on the processing

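No paired analysis was possible because each genotype has 1 library. Depth limits what can be said of Snai2, Zeb2 falls under the RPKM filter, and the missing replicates limit every ratio. Scaling by the summed reads of each library gave a KO/WT ratio of 0.736 for Cdh1 and 1.18 for Fn1. Median-of-ratios size factors gave 0.753 for Cdh1, 0.992 for Epcam, 1.19 for Vim and 1.21 for Fn1. Division by the chromosome median gave 0.918 for Cdh1, 1.01 for Epcam, 1.20 for Vim and 1.10 for Fn1. With thresholds of 0.5 and 2, 0 of the 10 genes passed the lower and 0 the higher one. With a pseudocount of 1, 0 passed the higher threshold, and without the RPKM filter 2 did (Zeb1 and Snai2). The median log2 ratio without Snai2 and Zeb2, which stay under 1 RPKM, was -0.16. The number of the 10 genes with a peak was 1 within 5000 bp of the start, 1 among peaks above the median fold enrichment, and 1 between 500 bp before and 100 bp after the start. Over the lists of related genes, the number past the higher threshold was 5, of which 2 were microRNAs with at most 2 reads, and it was 2 with a pseudocount of 1. The list counts under the lower threshold that moved by over 1.5 times are those of the mesenchymal genes, 4 against 2 with size factors or chromosome medians, the other EMT factors, 4 against 2 with a pseudocount of 1 or chromosome medians, the epithelial regulators, 3 against 1 with chromosome medians, the endoderm markers, 3 against 1 with a pseudocount of 1, the fibronectin receptors, 1 against 0 with chromosome medians, the cadherin family, 2 against 1 with size factors or a pseudocount of 1, and, with a pseudocount of 1, the other protocadherins and the mir-200 family, 1 against 0 each. The list medians that moved with a pseudocount of 1 were those of the mesenchymal genes, -0.39 against -0.27, the mir-200 family, 0.72 against 0.53, the fibroblast markers, 0.44 against 0.07, the endoderm markers, -0.76 against -0.22, and the mesoderm markers, -1.04 against -0.57. Another 63 values stayed within the counting interval or within 1.5 times the count reported, and the cause of the other shifts was not tested.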

Other observations

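Families related to the genes above were read after the values of the 10 genes had been seen. Of 19 claudin genes, which encode the strands of tight junctions, 6 exceeded 1 RPKM in the wild type library. Of these, Cldn4, Cldn6 and Cldn7 passed the lower threshold, Cldn4 not with size factors (0.707) or over its chromosome median (0.705), where the count was 2, while Cldn3 had a ratio of 0.743, Cldn12 one of 0.903 and Cldn9, with 39 and 31 reads, one of 0.895. None passed the higher threshold. The summed claudin level was 894 RPKM in the wild type library against 572 in the library labelled Prep1-/-, most of it from Cldn4 and Cldn6.

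Of the 24 clustered protocadherin genes, which give neurons their surface identity, 2 exceeded 1 RPKM in the wild type library and 18 had under 20 reads in both libraries together, so that most could not be called. Their most covered member, Pcdhgc4, had 14578 reads in the wild type library against 13061 in the library labelled Prep1-/-, a ratio of 1.00 with an interval of 0.978 to 1.03. Exons shared by the cluster can be counted for several of these genes. Of 14 other protocadherin genes, Pcdh19 passed the lower threshold, with 229 and 127 reads and a ratio of 0.622. With 1 added to both RPKM values the Pcdh19 ratio was 0.786 and did not pass. None passed the higher threshold.

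Among 4 plakophilin genes, whose products link desmosomes and adherens junctions to the cytoskeleton, Pkp3 passed the lower threshold with a ratio of 0.511. Pkp2 had a ratio of 0.768, and Pkp4, at 45.2 and 44.3 RPKM, had a ratio of 0.981 with an interval across 1. Pkp1 had 1 read in the wild type library against 8 in the library labelled Prep1-/-.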
